A study of Mus musculus with 2 samples.

Results

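The 33 genes described here encode the enzymes that copy DNA and the enzymes that make or clean its nucleotide precursors. They were chosen by symbol from the gene list of 2 single-cell RNA libraries, and all 33 of them were found among the 32285 genes of each count matrix. The libraries hold bone marrow-derived MDSCs (myeloid-derived suppressor cells) of female C57BL/6 mice aged 10 weeks. Marrow was flushed from leg bones, red cells were lysed, and the remaining cells were kept for 4 days in medium that held IL-6 and GM-CSF, each at 50 ng/mL. One culture received dabrafenib (DAB), a BRAF kinase inhibitor that also activates the stress kinase GCN2, at 1.5 µM, and the other received its solvent DMSO. No genetic change is named for either group, both share the cytokines, and each is 1 library made with the 10x Genomics 5′ v2 kit. How many mice gave cells to a library is not stated in the labels or the methods read here. The comparison asks how dabrafenib alters the growth and differentiation of these cells.

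Replication starts when the 6 subunits of the MCM ring, Mcm2 to Mcm7, are loaded onto DNA by Cdc6 and Cdt1. Cdc45 and the GINS complex, which contains Gins1 and Gins2, turn the ring into a working helicase in S phase. Polymerases then extend primers along a Pcna clamp that the RFC complex loads, while ribonucleotide reductase, thymidylate synthase, thymidine kinase and dUTPase supply the thymidine and other deoxynucleotides. Many of these genes are transcribed by E2F factors before and during S phase, and committed granulocytes leave the cycle as they mature.

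E2F-type words stand in the promoters of many of these genes, so a few are shown here to make the common element visible. RefSeq promoter windows (assembly GRCm38.p6, from 250 bases before to 50 bases after a start) were given for 28 of the 33 genes, with 33 windows in all, and Mcm4, Gins1, Gins2, Pole and Rfc2 had no entry. The words searched, on both strands, were first TTCCCGC and second TTCGCGC, to which were added TTGCCGC and finally the word TTGGCGC, and matches can overlap each other where one is read from either strand. At least 1 word stood in 22 of the 33 windows, against 9.57% of all 32851 windows, and these belonged to 19 of the 28 genes. Of the 34 mitosis genes used below for comparison, 31 had 32 windows, and 5 of these windows held such a word. The words TTTGAA and TTCGAA, which match the CHR element known from mitosis genes, stood in 25 of the 32 mitosis windows and in 5 of the 33 replication windows, against 19.2% of all windows. The CCAAT word stood in 18 of the 33 replication windows and in 25 of the 32 mitosis windows, against 37.4% of all windows. The stretches below are read 5′ to 3′ along each gene's own strand, all of them before the start that RefSeq gives, and capitals mark the E2F-type words. They were picked to show 1 or more genes of the MCM ring, the nucleotide enzymes, the polymerases, the chromatin factors and the licensing factors. All lie outside annotated exons in GENCODE M21, and only that of Cdc6 lies inside an annotated gene, outside the exons of Cdc6 itself.
Mcm5, chr8:75109330-75109396, plus strand: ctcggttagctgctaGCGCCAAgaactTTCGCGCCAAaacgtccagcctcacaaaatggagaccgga
Mcm6, chr1:128359712-128359778, minus strand: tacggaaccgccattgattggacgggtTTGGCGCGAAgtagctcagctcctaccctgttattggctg
Rrm1, chr7:102441598-102441664, plus strand: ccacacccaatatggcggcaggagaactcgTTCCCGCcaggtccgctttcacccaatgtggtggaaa
Pola1, chrX:93632240-93632306, minus strand: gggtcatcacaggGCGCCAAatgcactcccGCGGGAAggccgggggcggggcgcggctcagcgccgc
Chaf1a, chr17:56040339-56040405, plus strand: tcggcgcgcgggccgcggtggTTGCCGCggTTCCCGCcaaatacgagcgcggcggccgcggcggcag
Cdc6, chr11:98907983-98908049, plus strand: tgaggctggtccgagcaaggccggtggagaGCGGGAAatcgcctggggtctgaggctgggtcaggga
A word is a match of letters and not a measured binding site. The genes with the largest ratios described below were not all among those with a word, since the windows of Mcm2, Dut and Tyms held none of these words.

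The DMSO file held 9855 barcodes and the DAB file 11631. After barcodes with high mitochondrial content and likely doublets were left out, 9032 DMSO cells and 10476 DAB cells remained, with 92573325 and 141472312 UMIs (unique molecular identifiers, each counting 1 captured molecule) and medians of 7543.5 and 9559.5 UMIs per cell. The DAB cells were thus deeper, so levels are given as UMIs per 1000000 summed UMIs (CPM), and shares of cells are given after each cell was thinned to 1500 UMIs. The libraries shared 152 barcodes, 123 of them among the kept cells. With 1 library per condition there was no test of a difference. Intervals are 95% intervals of counting error only, apart from intervals of a median, which run over the genes. A gene was called higher or lower in DAB where its log2 ratio (DAB over DMSO) was at least 0.5 in size and its interval left out 0.

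The 33 genes had a higher level in cycling cells in both libraries. Cells were set apart by genes that are not among the 33: cells with at least 2 UMIs of 22 other S phase genes or at least 3 UMIs of 34 mitosis genes were taken as cycling. In DMSO the log2 ratio of cycling over other cells ran from 0.89 for Ung, a uracil-DNA glycosylase, to 5.45 for Rrm2, the small subunit of ribonucleotide reductase. In DAB it ran from 1.12 for Rfc2, a subunit of the clamp loader, to 4.76 for Rrm2. All 33 intervals lay above 0 in each library, with medians of 2.36 and 2.44. The share of all genes with such an interval was not computed. Cycling cells also differed from the others in cell class, described below. In DMSO they were 39.4% of granulocyte progenitor-like cells and 6.82% of mature PMN-like cells.

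Over all cells, the replication genes stood a little higher in DAB. Their summed level was 668 CPM in DMSO and 793 CPM in DAB, a log2 ratio of 0.25 (0.23 to 0.26). Of the 33 genes, all of which had at least 20 UMIs, 5 were called higher and none lower, against a background of 13.6% of 16342 genes called higher and 16.7% called lower. The share called higher was therefore near the background, and the absence of genes called lower stood against the 16.7%. At a log2 ratio of 0.25, 10 genes were higher against a background of 23.5%, and none reached a ratio of 1, which 5.5% of all genes did upward and 7.22% downward. The median log2 ratio of the 33 genes was 0.095, with a range from -0.18 to 0.89, beside a median of -0.027 over all genes tested. Without the cells of the chemokine-high class described below, the median was 0.20 and 8 genes were higher. This setting was added after the values were seen, and it leaves out a class in which all 33 genes were lower in DAB. The share of all genes called was not computed for it.

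The MCM ring was the group with the highest median, 0.44 on the log2 scale, and its subunits did not move together. Mcm2 (chr6:88883474-88898780, minus strand) had 11.3 CPM in DMSO and 21.0 CPM in DAB, 1.85-fold higher, with a log2 ratio of 0.89 (0.79 to 0.99). Mcm5 (chr8:75109569-75128439, plus strand) had 19.7 and 30.4 CPM, with a log2 ratio of 0.62 (0.54 to 0.70). These were the ring subunits past the fold. Mcm3, with 28.8 CPM in DMSO and 39.6 CPM in DAB, and Mcm6, with 34.4 and 46.2 CPM, fell just short of it at log2 ratios of 0.46 and 0.43. Mcm4 had 22.4 and 24.5 CPM and Mcm7 had 23.5 and 23.9 CPM, so the level of Mcm7 differed by less than its counting interval (-0.05 to 0.10 on the log2 scale).

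The nucleotide enzymes divided in the same way. Dut (chr2:125247190-125258608, plus strand), the dUTPase that removes dUTP and so provides the substrate for thymidylate synthesis, had 62.6 CPM in DMSO and 107 CPM in DAB, 1.72-fold higher, with a log2 ratio of 0.78 (0.74 to 0.82). Tyms (chr5:30058202-30073617, minus strand), thymidylate synthase, had 17.0 and 27.9 CPM, 1.64-fold higher, with a log2 ratio of 0.71 (0.63 to 0.80). Both act in a row on the path from dUTP to dTMP. Thymidine kinase Tk1, which salvages thymidine, had 18.3 and 19.5 CPM, and the reductase subunits Rrm1 and Rrm2 had 35.8 against 33.8 CPM and 25.1 against 28.3 CPM. None of these other enzymes passed the fold, and Rrm1 was slightly lower in DAB, at a log2 ratio of -0.08 (-0.15 to -0.02).

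On the lagging strand, Fen1 (chr19:10199132-10204169, minus strand), the flap endonuclease that trims Okazaki fragments, had 17.3 CPM in DMSO and 25.0 CPM in DAB, with a log2 ratio of 0.53 (0.44 to 0.62). Lig1, the ligase that seals the same fragments, had 18.5 and 17.3 CPM, with a log2 ratio of -0.09 (-0.18 to 0.00034), and so did not share the difference. Fen1 was the last gene inside the fold, and Mcm3, Mcm6, Chaf1b and Ung lay just outside it.

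The remaining groups lay close to even between the libraries. The sliding clamp Pcna had 56.2 CPM in DMSO and 59.6 CPM in DAB. Among its loaders, Rfc2 had 47.7 and 46.8 CPM, Rfc3 had 9.23 and 8.13 CPM, Rfc4 had 17.0 and 15.3 CPM, and Rfc5 had 12.9 and 16.0 CPM. Rfc3 had the lowest log2 ratio of all 33 genes, at -0.18, and Rfc5 the highest of the loaders, at 0.31. Cdc6 (6.11 and 5.93 CPM) and Cdt1 (17.7 and 17.8 CPM), which license origins, differed by less than their counting error. The same was true of Cdc45 (9.24 and 9.54 CPM), Gins1 (4.41 and 4.11 CPM), Gins2 (13.6 and 13.3 CPM) and Clspn (11.5 and 11.6 CPM), the claspin adaptor of the fork checkpoint. Of the polymerase genes, Pola1 had 15.5 and 16.0 CPM, the primase Prim1 5.22 and 5.92 CPM, Pold1 17.0 and 16.4 CPM, and Pole 5.16 and 5.82 CPM, and none passed the fold.

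Genes of chromatin and repair at the fork were also short of the fold. Uhrf1, which guides maintenance methylation, had 16.0 CPM in DMSO and 18.2 CPM in DAB. Slbp, which binds histone mRNA, had 42.6 and 47.9 CPM. The chromatin assembly factor subunits differed from each other: Chaf1a had 13.7 and 13.8 CPM, whereas Chaf1b had 9.41 and 12.6 CPM, with a log2 ratio of 0.42 (0.30 to 0.54). Ung, which removes the uracil that Dut keeps out of DNA, had 2.69 and 3.58 CPM from 249 and 507 UMIs, with a log2 ratio of 0.41 (0.19 to 0.64). Some of the 33 genes overlap another annotated gene, and Chaf1b alone overlaps one on its own strand, the intronic transcript Gm49617. How reads in these overlaps were assigned was not examined.

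**Figure D1:**
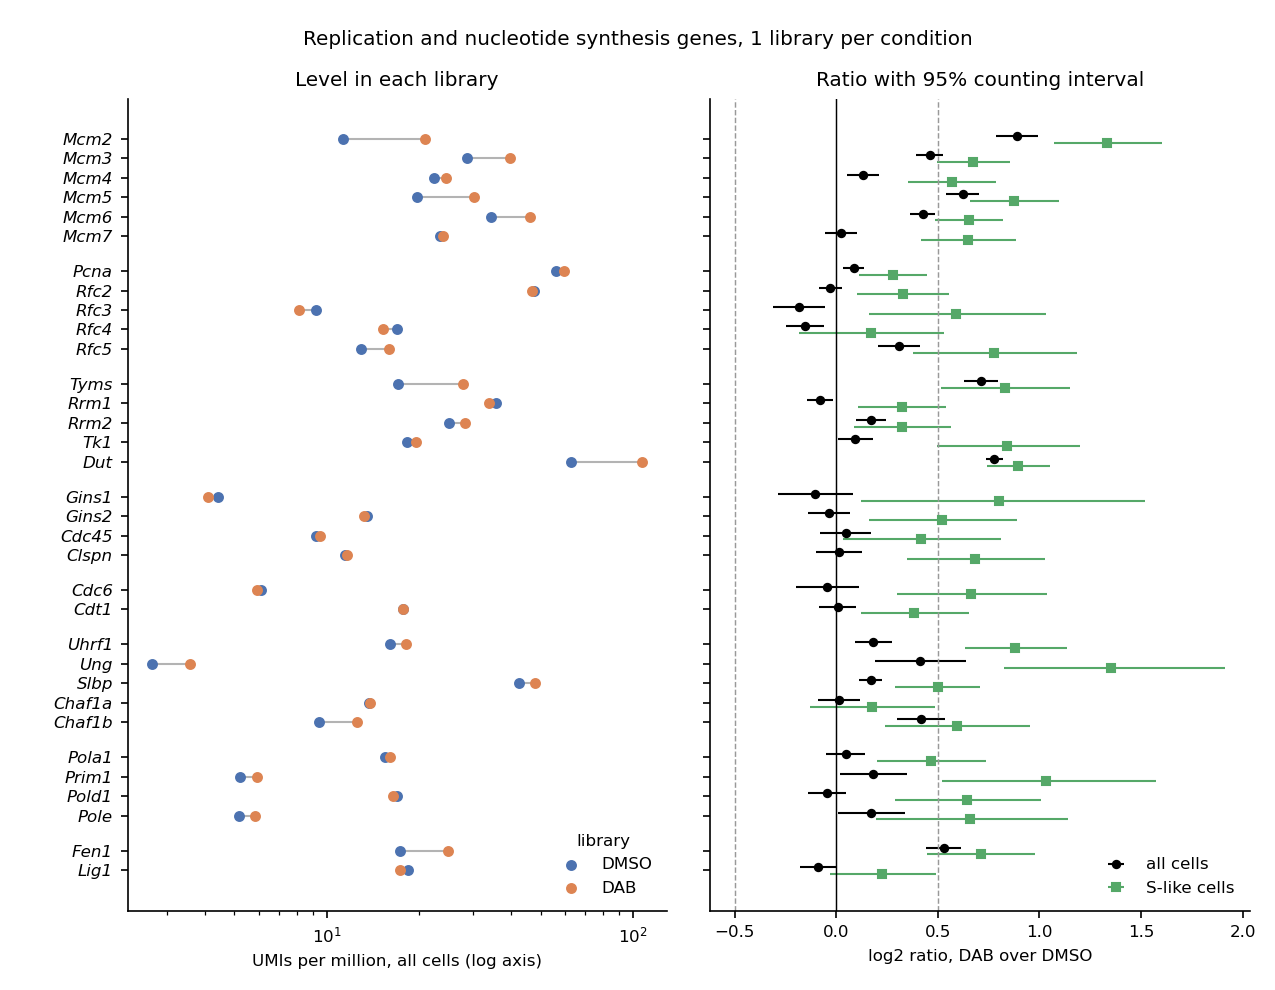
Levels of the 33 genes over all cells in each library (left, CPM, log axis) and the log2 ratio of DAB over DMSO with 95% counting intervals (right) for all cells (circles) and for S-like cells (squares), grouped by role, with dashed lines at the fold of 0.5 in size. Over all cells Mcm2, Mcm5, Dut, Tyms and Fen1 lie past the line, whereas in S-like cells all 33 squares lie above 0.

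Other genes of the same pathways differed among themselves. Of 38 other replication genes, 4 were higher and none lower, beside 13.6% and 16.7% of all genes, with a median log2 ratio of 0.017. Pole4, a polymerase epsilon subunit, went from 45.6 CPM in DMSO to 82.6 CPM in DAB. The most counted gene of that list, the polymerase delta subunit Pold4, had 315 and 248 CPM, and the lowest, Ticrr, which helps fire origins, had 5.23 and 3.85 CPM. Of 29 other nucleotide synthesis genes, 10 were higher and 2 lower, beside the same 13.6% and 16.7%. Their median was 0.36, and its interval over genes (-0.09 to 0.52) included 0. Adsl, an enzyme of purine synthesis, had 18.03 CPM in DMSO and 35.7 CPM in DAB. Dck, the deoxycytidine kinase of nucleoside salvage, went the other way, with 22.0 CPM in DMSO and 11.3 CPM in DAB, and the most counted gene, the nucleoside diphosphate kinase Nme2, had 633 and 790 CPM.

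Over all cells, the mitosis genes were lower in DAB. Of 34, none was higher and 13 were lower, beside 13.6% and 16.7% of all genes. Their median log2 ratio was -0.38 (-0.56 to -0.25 over genes), with a summed level of 1436 CPM in DMSO and 1118 CPM in DAB. In the classes described below, their median was -2.49 in chemokine-high granulocyte-like, -0.55 in granulocyte progenitor-like and -0.60 in mature PMN-like cells. It was 0.35 in immature monocyte-like, 0.51 in intermediate granulocyte-like and 0.11 in mature monocyte-like cells. The part of the cell mix in the value over all cells was not tested. Cenpf, a kinetochore protein, had 45.9 and 25.8 CPM, Ube2c, which tags mitotic cyclins, had 163 and 143 CPM, and Plk1, a mitotic kinase, had 19.6 and 19.95 CPM. Of the 22 S phase genes outside the 33, none was higher and 2 were lower, beside the same 13.6% and 16.7% over all genes. Their median was -0.21, and its interval over genes (-0.30 to 0.16) included 0. Blm, a DNA helicase, had 28.0 CPM in DMSO and 15.1 CPM in DAB, the maintenance methylase Dnmt1 had 51.3 and 40.1 CPM, and Usp1, a deubiquitinase, had 35.6 and 46.9 CPM.

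Genes that bring cells into S phase or hold them back were called in both directions, as were 13.6% (higher) and 16.7% (lower) of all genes. Of 23 G1 cyclin, RB and E2F genes, 5 were higher and 4 lower, with a median log2 ratio of 0.069. Ccnd2, cyclin D2, had 113 CPM in DMSO and 289 CPM in DAB, and cyclin D3 (Ccnd3) had 262 and 332 CPM. Rb1, the pocket protein that restrains E2F, had 81.8 CPM in DMSO and 42.2 CPM in DAB. Of 24 inhibitor and checkpoint genes, 3 were higher and 6 lower, with a median of -0.11. The cyclin kinase inhibitor Cdkn1a had 610 and 630 CPM, Cdkn1c had 25 UMIs in DMSO and 150 in DAB (0.27 and 1.06 CPM), and the stress gene Gadd45b had 64.9 CPM in DMSO with a log2 ratio of -1.32.

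A higher level over all cells can come from more cells with the transcripts or from more transcripts per cell, so single cells were counted next. After thinning, 436 DMSO cells and 289 DAB cells with under 1500 UMIs were left out. None of the 33 genes gave a UMI in 61.1% of 8596 DMSO cells and in 57.1% of 10187 DAB cells. Cells with at least 3 UMIs of the 33 genes were 7.81% (exact interval 7.25 to 8.39) in DMSO and 8.68% (8.14 to 9.24) in DAB, and held 49.6% and 49.2% of the UMIs of these genes. Without thinning the shares were 40.4% and 50.3%. In mature PMN-like cells, the class taken as a reference with few cycling cells, the shares were 2.77% and 3.55% at median depths of 2940 and 3293 UMIs. By the stage limits given below, 6.82% and 6.08% of this class were taken as cycling, among them 4.05% and 3.47% as S-like. Free RNA was not measured. In contrast, cells with at least 3 UMIs of the 34 mitosis genes were fewer in DAB, 11.3% (10.6 to 12.0) against 8.23% (7.70 to 8.78).

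To place the 33 genes along the cycle, cells were divided into 4 stages with the genes outside the 33. S-like cells had at least 2 UMIs of the 22 S phase genes and fewer than 3 of the mitosis genes, mitosis-like cells had at least 3 mitosis UMIs and fewer than 2 S phase UMIs, and cells past both limits or neither limit made up the rest. S-like cells made up 3.19% (2.83 to 3.58) of the DMSO library and 3.47% (3.12 to 3.84) of the DAB library. Cells past both limits were 4.11% (3.70 to 4.55) and 2.84% (2.52 to 3.18), and mitosis-like cells were 7.20% (6.66 to 7.77) and 5.39% (4.96 to 5.85). The share of S-like cells thus differed by less than counting error, and those of the other cycling stages were lower in DAB.

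The replication genes were highest in cells past both limits, with 2599 CPM in DMSO and 2864 CPM in DAB. Mitosis-like cells had 1372 and 1651 CPM, and cells past neither limit had 356 and 443 CPM. The S-like cells differed most between the libraries, with 1580 CPM (1540 to 1622) in 274 DMSO cells and 2416 CPM (2376 to 2457) in 353 DAB cells. Cells past neither limit still held 41.8% of the UMIs of these genes in DMSO and 44.4% in DAB, since they were 85.5% and 88.3% of all cells.

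**Figure D2:**
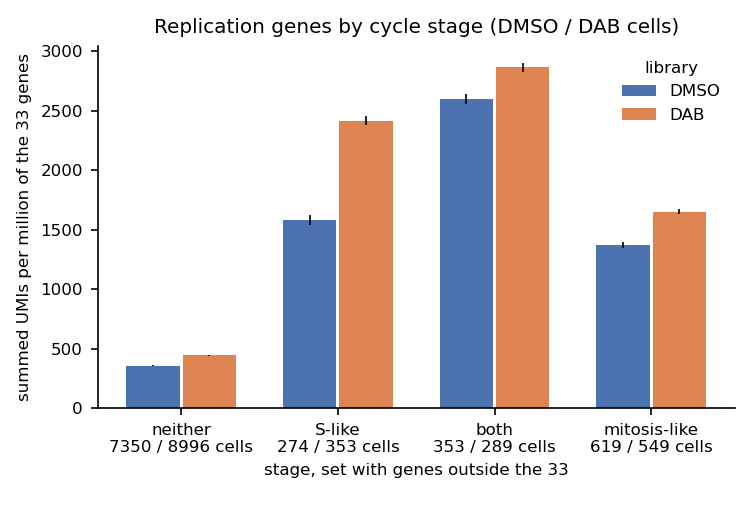
Summed CPM of the 33 genes in each library by cycle stage, with the number of DMSO and DAB cells under each pair and 95% counting intervals as bars. DAB is above DMSO in every stage, and the S-like pair is the furthest apart, at 1580 and 2416 CPM.

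In S-like cells, all 33 genes had a higher level in DAB, and 22 of them were called higher, none lower, against a background of 15.1% called higher and 11.6% called lower. This comparison was added after the values were seen. The median log2 ratio was 0.65, with a range from 0.17 for Rfc4 to 1.35 for Ung, beside 0.062 over all genes tested. All 6 MCM subunits were called higher: Mcm2 had 40.9 CPM in DMSO and 103 CPM in DAB, and Mcm7, even over all cells, had 59.8 and 93.7 CPM. Uhrf1 had 49.2 and 90.6 CPM, Prim1 had 11.4 and 23.3 CPM, and Dut had 126 and 235 CPM. Pcna, with 124 and 151 CPM, Rrm1, with 73.1 and 91.5 CPM, and Lig1, with 52.0 and 60.9 CPM, were not past the fold. The median depths of the cells were 12420.5 UMIs in DMSO and 11608 in DAB, but they came from different clusters: immature monocyte-like cells made up 13.5% of the DMSO cells and 0.567% of the DAB cells. Over the 9 clusters with at least 10 S-like cells in each library, and with DAB cells weighted to the DMSO shares, the median was 0.60. This leaves out the immature monocyte-like cluster and others. Among these were the intermediate granulocyte-like cluster, with 16 DMSO and 4 DAB S-like cells, and an unnamed cluster with 8 and 33. The value does not cover the S-like cells of the clusters left out. When cells were instead taken by their full UMI counts, without thinning, the S-like group grew to 1070 DMSO and 1780 DAB cells with only 360 and 350 CPM of the 33 genes, and the median turned to -0.20 with 2 genes higher. With at least 3 S phase UMIs the median was 0.33 with 8 genes higher. The share of all genes called was not computed for either of these settings. The mitosis genes, whose limit bounds the S-like group, were themselves lower in DAB over all cells, with a median log2 ratio of -0.38. The 22 S phase genes that set its other limit had a median of -0.21 (-0.30 to 0.16 over genes). Cells past both limits were 4.11% of DMSO cells and 2.84% of DAB cells. The part of these list and share differences in the S-like difference was not tested.

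In the other stages the difference was smaller. In cells past both limits 6 genes were higher and none lower, with a median of 0.058 and backgrounds of 14.8% called higher and 16.6% called lower. In mitosis-like cells 5 were higher and none lower, with a median of 0.13 (backgrounds 15.5% and 17.5%). The shares called higher in these stages were near the background. In cells past neither limit 9 were higher and none lower, with a median of 0.21 (backgrounds 13.6% and 15.7%) and 26 of the 33 genes above 0. Mcm2, Mcm5, Dut and Tyms were called higher in each of the 4 stages, and the share of all genes so called was not computed. In mitosis-like cells, for instance, Mcm2 had 17.5 CPM in DMSO and 34.8 CPM in DAB, and Tyms had 44.5 and 79.4 CPM. Dut, in cells past neither limit, had 33.2 CPM in DMSO and 65.1 CPM in DAB.

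Taking all cells with at least 3 mitosis UMIs together, 972 in DMSO and 838 in DAB, the 33 genes had 1866 CPM in DMSO and 2096 CPM in DAB. Here 6 genes were higher and none lower, against backgrounds of 15.2% called higher and 18% called lower. The share called higher was near the background. The median log2 ratio was -0.009 beside -0.025 over all genes, and between -0.098 and 0.22 under other settings. The 6 genes were Mcm2, Mcm5, Tyms, Rfc5, Fen1 and Dut, with ratios from 0.51 for Rfc5 to 0.73 for Tyms. These cells had median depths of 15908.5 UMIs in DMSO and 27191.5 in DAB, a larger gap than over all cells, and its part in the result was not tested. They also came from different clusters. Immature monocyte-like cells were 25.7% of them in DMSO and 8.35% in DAB, and an unnamed cluster with Stfa1 and Stfa2 2.47% and 14.1%. In that unnamed cluster 16 genes were lower and none higher, and in mature monocyte-like cells 11 were higher and none lower. No background was set beside these cluster counts.

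Within a library, the ratio of S-like over mitosis-like cells ordered the genes by where they leaned between these stages. It leaves out the cells past both limits, where, by level alone, 30 of the 33 genes stood highest in DMSO and 22 in DAB. The share of all genes that stood highest there was not computed. In DMSO the median log2 ratio was 0.14, with 11 genes higher in S-like cells and 4 higher in mitosis-like cells, against backgrounds of 8.77% and 7.8%. In DAB the median was 0.69, with 19 genes higher in S-like cells and 2 higher in mitosis-like cells, against 10.7% and 5.29%. The gap between the libraries varied with the settings: the medians were 0.59 and 0.76 without thinning, and 0.44 and 0.85 where mitosis-like cells needed 5 mitosis UMIs. In DAB the mitosis-like cells had a median depth of 26146 UMIs against 11608 in S-like cells, and in DMSO 14617 against 12420.5. The part of depth was not tested. The order began with the same genes in both: Ung (2.31 in DMSO, 4.00 in DAB) came first and the licensing factor Cdc6 (1.53 and 2.51) second. Mcm2 (1.22 and 1.56), Chaf1b (1.17 and 1.57), Mcm6 (0.90 and 1.34), Cdt1 (0.87 and 1.34) and Mcm4 (0.87 and 1.46) followed. Tk1 was last in both libraries (-1.12 and -0.57), and Tyms (-0.50 and -0.51), Rfc5 (-0.58 and -0.30), Rrm1 (-0.41 and -0.22) and Rrm2 (-0.36 and -0.29) stood near it.

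Cdc6, Cdt1 and most of the MCM ring thus had more in S-like than in mitosis-like cells, and Tk1, Tyms, Rrm1 and Rrm2 less. Tk1 itself was highest past both limits, with 25.8 CPM in S-like cells, 106 CPM in cells past both limits and 56.2 CPM in mitosis-like cells of DMSO. In DMSO only Cdc6, Ung and Chaf1b were highest in S-like cells, and in DAB 11 genes were, among them Mcm2 to Mcm6. These counts rest on the level alone, without intervals, and some gaps were small. Chaf1b had 26.1 CPM in S-like cells and 25.0 CPM past both limits in DMSO, and Mcm5 118 and 114 CPM in DAB. The change in these counts between the libraries was not tested. Mcm7 was the MCM subunit that stood lowest in DMSO, at 0.01, and it lay at 0.87 in DAB. Pold1 (-0.50 and 0.26) and Gins1 (-0.71 and 0.42) lay on opposite sides of 0 in the libraries, although the Gins1 interval in DAB included 0. Prim1 (-0.012 and 0.80), Cdc45 (-0.058 and 0.21), Gins2 (-0.19 and 0.46) and Clspn (-0.26 and 0.43) did so too, with DMSO intervals that included 0. The Cdc45 interval in DAB also included 0. Fen1 went the other way, from 0.62 in DMSO to 0.43 in DAB.

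**Figure D3:**
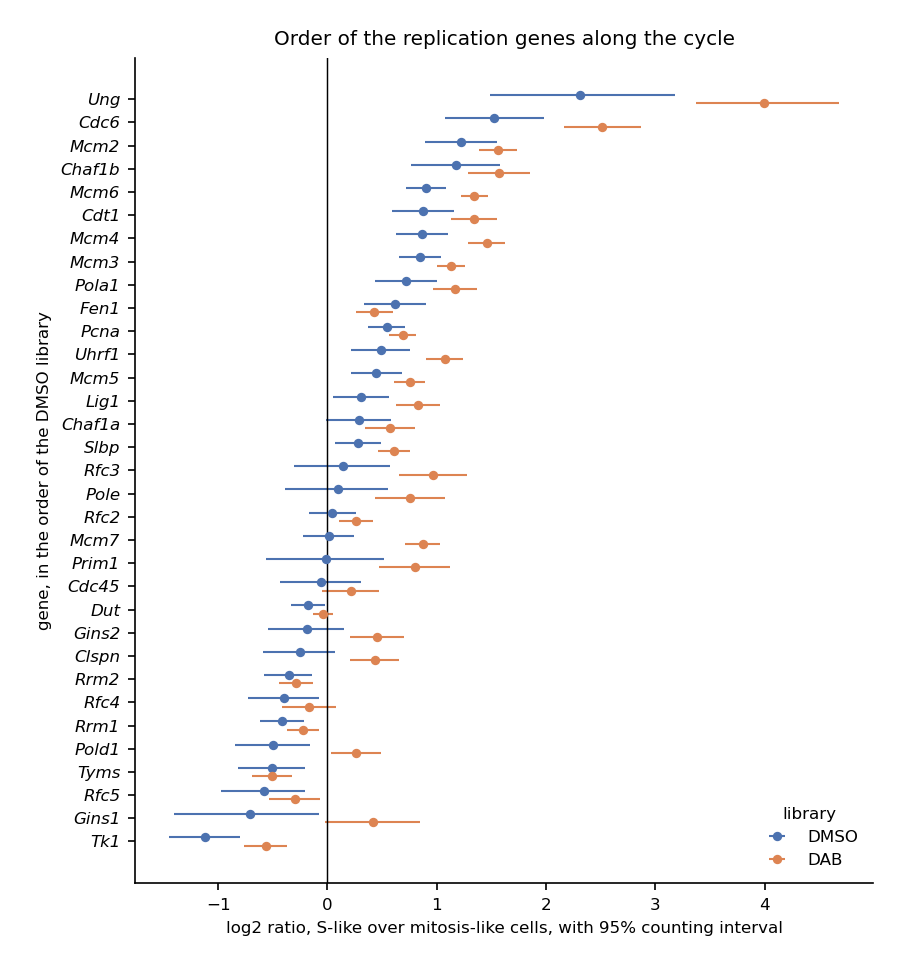
Log2 ratio of S-like over mitosis-like cells for each of the 33 genes in DMSO and DAB, with 95% counting intervals, ordered by the DMSO value. Ung and Cdc6 head the order and Tk1 ends it in both libraries, and the DAB points lie to the right of the DMSO points for 31 of the 33 genes.

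The cells were next divided into classes by marker genes, in clusters built without the 33 genes and without the other cell cycle lists. The rule for naming a cluster from its markers was set after the clusters were seen, and a class needed at least 200 cells of each library to be compared. Many cells were in clusters that no marker list named, and the class results do not cover them. Among these was the largest cluster, led by S100a9, S100a8 and Ly6g, with 961 DMSO and 725 DAB cells. Beside the myeloid classes, 141 DMSO cells and 187 DAB cells were B cell-like. Granulocyte progenitor-like cells, with Elane, Prtn3, Ctsg and Mpo among their leading genes, had the highest level of the 33 genes among the compared classes. Their summed level was 1194 CPM (1166 to 1221) in 289 DMSO cells and 1494 CPM (1472 to 1516) in 377 DAB cells. Of the 33 genes, 9 were higher and 1, Lig1, was lower, with a median log2 ratio of 0.086, against backgrounds of 15.6% and 17.3%. The median lay between 0.39 and 0.54 in 5 of 10 other settings, those without doublet removal, alignment or regression and those with another resolution. Dut had 147 CPM in DMSO and 286 CPM in DAB, Mcm2 had 23.8 and 47.4 CPM, and Lig1 had 30.6 and 20.8 CPM. Cells with at least 3 UMIs of the 33 genes were 21.3% (16.7 to 26.4) in DMSO and 31.9% (27.2 to 36.9) in DAB, whereas cells with mitosis UMIs were 32.4% and 27.9%. The median of the mitosis genes in this class was -0.55. In its S-like cells, 20 in DMSO and 27 in DAB, the 33 genes had 1429 and 2814 CPM. These S-like cells were not taken again without thinning. The median depths of the class were 20748 UMIs in DMSO and 30477 in DAB, and the part of depth was not tested.

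Intermediate granulocyte-like cells, which express the secondary granule genes Camp, Ltf and Ngp, were many in DMSO (864) and few in DAB (198, just under the limit of 200), so they are given here after their values were seen. Their summed level was 584 CPM (565 to 602) in DMSO and 999 CPM (962 to 1037) in DAB. Here 22 of the 32 genes with enough UMIs were higher and none lower, with a median of 0.69, against backgrounds of 24.2% called higher and 11.8% called lower. The median depths were 6902 UMIs in DMSO and 12892.5 in DAB, and the part of depth was not tested. Unlike the other compared classes, this one was not recomputed under other settings. Tyms had 12.5 CPM in DMSO and 41.2 CPM in DAB, and Mcm2 had 8.51 and 26.7 CPM. Cells with mitosis UMIs were also more frequent, 15.5% against 25.0%, and the mitosis genes had a median of 0.51. Within the mitosis-UMI cells of this class the 33 genes had 1862 and 2015 CPM, and in the cells past neither limit they had 133 and 278 CPM, a log2 ratio of 1.06 (0.89 to 1.24).

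Mature PMN-like cells, with Csf3r, Fpr1 and Mmp9 among their leading genes, had low levels in both libraries, 408 CPM (387 to 430) in 940 DMSO cells and 426 CPM (409 to 443) in 1447 DAB cells. Of the 28 genes with enough UMIs, 6 were higher and 2 lower, with a median of -0.037, against backgrounds of 16.3% and 9.99%. The median was 0.36 without doublet removal and 0.30 with each cell weighted the same. The clusters of the class went opposite ways: the summed log2 ratio was 0.36 (0.22 to 0.50) in one with 765 DMSO and 556 DAB cells, and -0.38 (-0.55 to -0.22) in one with 152 and 629 cells. The cells with mitosis UMIs were 2.77% and 2.60%. The counts were small, such as 17 and 6 UMIs of Cdc6 and 2 and 36 UMIs of Rrm2. In the S-like cells of this class, 35 in DMSO and 48 in DAB, the 33 genes had 367 and 381 CPM. These levels were near the 363 and 403 CPM of its cells past neither limit.

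In the chemokine-high granulocyte-like cells the 33 genes were lower in DAB. These cells express Cxcl3, Cxcl2 and Ccl3, with Ccl2, Gpnmb and Mmp13 also among their leading genes, and were 219 cells in DMSO and 1168 in DAB. The 33 genes had 963 CPM (925 to 1003) in DMSO and 403 CPM (393 to 414) in DAB. All 33 had a lower level in DAB and 30 were called lower, none higher, with a median of -1.44, against a background of 14.1% called lower and 7.08% called higher. Tk1 had 36.7 CPM in DMSO and 3.80 CPM in DAB, and Clspn had 21.1 and 3.94 CPM. Cdc6 (7 and 35 UMIs), Ung and Slbp were the genes not called. The class was a single cluster, and the unnamed clusters nearest to the same marker list did not share the difference. A cluster led by Atp6v0d2 and Ccl3 (210 DMSO and 790 DAB cells) had 415 CPM in DMSO and 476 CPM in DAB. Another, led by Ccl4 and Ccl3 (125 and 280 cells), had 392 and 388 CPM.

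Cells with mitosis UMIs were 11.2% of the chemokine-high class in DMSO and 2.07% in DAB, and the mitosis genes had a median of -2.49. In its cycling cells (S-like, mitosis-like or both, 35 in DMSO and 55 in DAB) the 33 genes had 2521 CPM in DMSO and 2098 CPM in DAB, with a summed log2 ratio at -0.26 (-0.36 to -0.17). Among those with mitosis UMIs, 24 in each library, the 33 genes had 2644 CPM in DMSO and 2728 CPM in DAB, a log2 ratio of 0.045 (-0.062 to 0.15). In the cells of the class past neither stage limit the levels were 341 and 288 CPM. The part of the share of cycling cells in the class result was not tested further. The class median was -0.13 without regression of cell cycle scores before clustering and -0.40 without alignment of the libraries.

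Among the monocyte classes, mature monocyte-like cells, which express the MHC class II genes H2-Aa, H2-Ab1 and H2-Eb1, were nearly equal in number, 522 in DMSO and 551 in DAB. Their summed level was 620 CPM (605 to 635) in DMSO and 933 CPM (918 to 947) in DAB. Of the 33 genes, 17 were higher and none lower, with a median of 0.51, against a background of 15.1% called higher and 20% called lower. Mcm2 had 9.81 CPM in DMSO and 28.9 CPM in DAB, Mcm5 had 17.0 and 43.6 CPM, and Tyms had 13.2 and 27.8 CPM. Only Rfc2 (49.2 and 47.2 CPM) and Cdt1 (16.2 and 15.6 CPM) had a lower level in DAB. Cells with mitosis UMIs were 11.4% and 12.4%, and the mitosis genes had a median of 0.11. The difference was also present within mitosis-UMI cells, with 1796 CPM in 59 DMSO cells and 2468 CPM in 68 DAB cells, in S-like cells, with 958 and 2459 CPM in 23 and 28 cells, and in cells past neither limit, with 396 and 532 CPM. The S-like cells of this class were not taken again without thinning, the setting in which the S-like median over all cells was -0.20. The median depths of the class were 19612 UMIs in DMSO and 29373 in DAB, and the part of depth was not tested.

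Immature monocyte-like cells, led by Nos2, Arg1 and Mmp12, were 1143 in DMSO and 273 in DAB. The 33 genes had 687 CPM (676 to 698) in DMSO and 799 CPM (775 to 824) in DAB. Of these, 5 were higher and 1, Gins1, was lower, with a median of 0.11, against backgrounds of 13% and 14.5%. Tyms had 19.1 CPM in DMSO and 41.0 CPM in DAB, and Dut had 61.2 and 97.2 CPM. Cells with mitosis UMIs were 22.0% and 25.9%, and the mitosis genes had a median of 0.35. In this class the cells past neither limit had a lower level in DAB (362 and 269 CPM) and the cycling cells a slightly higher one (1551 and 1662 CPM). The median of this class was negative in 7 of 10 other settings, from -0.067 with each cell weighted the same to -1.07 without cell filters.

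**Figure D4:**
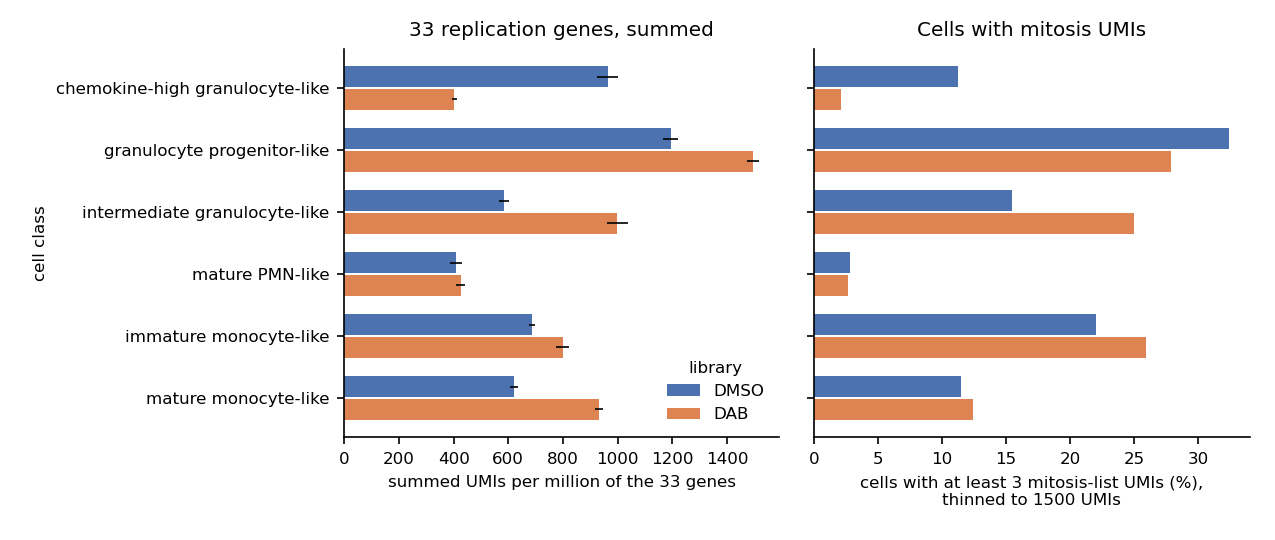
Summed CPM of the 33 genes with 95% counting intervals (left) and the percent of thinned cells with at least 3 mitosis-list UMIs (right), by cell class and library. The chemokine-high class is lower in DAB in both panels, whereas mature monocyte-like cells are higher in DAB on the left, at 620 and 933, with 11.4% and 12.4% on the right.

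**Figure D5:**
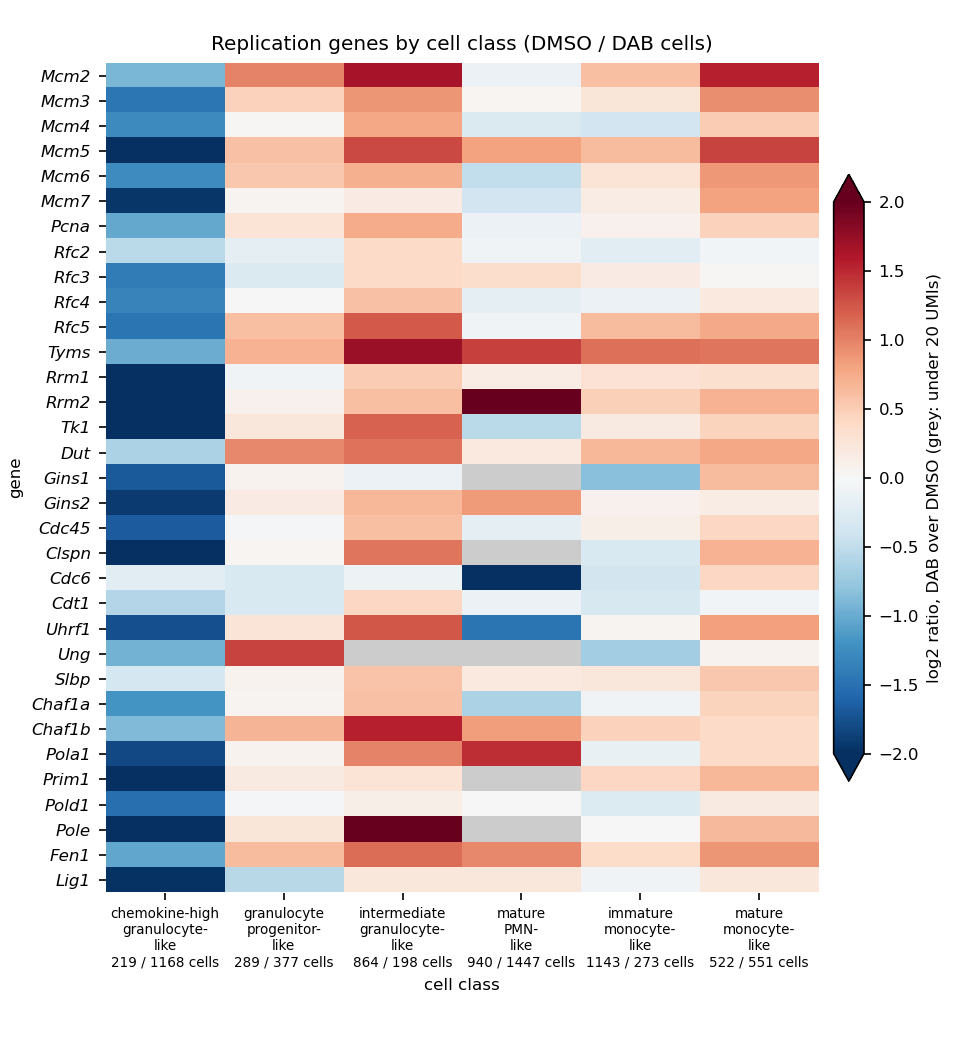
Log2 ratio of DAB over DMSO for each of the 33 genes in 6 cell classes, with red for higher and blue for lower in DAB, colours ending at 2 in size, and grey for under 20 UMIs over both libraries. The first column, the chemokine-high class, is blue throughout, and those of Mcm5, Tyms, Dut, Chaf1b and Fen1 are red in each of the other columns.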

How the data were processed

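Marrow cells of 1 DMSO and 1 DAB culture were profiled with 10x Genomics 5′ v2 chemistry. The authors deposited raw UMI counts per gene and barcode, not normalized, from Cell Ranger 7.0.0 and its mm10 annotation. Seurat 4.3.0 and R 4.1.2 are named in the submitters' processing notes, and their integrated object was not used here. Barcodes with over 10% mitochondrial UMIs (55 DMSO, 89 DAB) and simulated-doublet neighbours (768 and 1066) were left out. The doublet score found 45.75% and 52.75% of 400 planted doublets. Clusters were built without 203 cell cycle genes, after regression of cycle and mitochondrial scores and mutual nearest neighbour alignment, by Leiden at resolution 0.9, and named by markers.

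Counts were summed per library and cell group and scaled to a total of 1000000 (CPM), over genes with at least 20 UMIs. Ratios carry exact conditional binomial intervals, shares Clopper-Pearson intervals, and sums exact Poisson intervals, all at 95%. All 33 genes are named, and of each other list the gene with the most UMIs and those with the largest and smallest ratio among genes with at least 100 UMIs. The members and lists were chosen with earlier results of these data known. On simulated counts for 16172 genes over all cells, 94.9% of genes changed by a log2 of 1 and 98% of those changed by 2 were called on the true side, and 0.97% of unchanged genes were called. These counts were drawn from a Poisson model without spread between cells or libraries, as the intervals assume. The rates therefore cover counting error only and are not error rates for a comparison of single libraries. Alternatives covered filters, scaling, thinning, limits and clustering. Python 3.11.15, numpy 2.4.6, scipy 1.17.1, pandas 2.3.3, scikit-learn 1.9.0, igraph 0.11.9, leidenalg 0.10.2 and matplotlib 3.10.9 were used.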

Additional observations from a re-analysis of the deposited data

Results flagged for a closer look

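The median log2 ratio of the 33 replication genes lay on opposite sides of 0 in cell classes given the same comparison. It was -1.44 in chemokine-high granulocyte-like cells, 0.086 in granulocyte progenitor-like cells and 0.51 in mature monocyte-like cells. Over 10 other settings each, these medians ranged from -1.50 to -0.13, from 0.086 to 0.54 and from 0.42 to 0.73. The difference between classes was not tested, since each class has 1 library per condition.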

How the results depend on the processing

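No paired analysis was possible because each condition has 1 library, and for the same reason no replicate could be left out. Of 164 recomputed values, 120 stayed within the interval of the median over genes, the interval of a share or 1.5 times a count, 43 moved past that, and 1 also turned a median whose interval had left out 0. The sign differed from the reported one in 18 values: 7 medians of immature monocyte-like cells, 4 of mature PMN-like cells, 6 of cells with mitosis UMIs and 1 of S-like cells. Over all cells the median stayed between 0.070 and 0.20, and no replication gene was called lower in any of 11 settings. Not all of these settings could give another answer. Each gene had at least 249 UMIs in each library, so a changed limit of UMIs per gene could not alter these values. A fold limit of 1 could only remove calls. Such fixed values are among the 120 that stayed. At a fold limit of 0.25, 26.8% of all genes were called lower. The count called higher was 10 at a log2 ratio of 0.25 (23.5% of all genes), 0 at 1 (5.5% of all genes), and 8 without the chemokine-high cells, where the median was 0.20. The setting without chemokine-high cells was added after the values were seen, and the share of all genes called was not computed for it.

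The class medians moved with the filters, the weights and the clustering. In chemokine-high cells the median was -1.03 with at least 200 UMIs per gene, -1.04 at resolution 0.5, -0.40 without alignment and -0.13 without regression. In granulocyte progenitor-like cells it was 0.45 without doublet removal, 0.39 at resolution 0.5, 0.44 at resolution 1.5, 0.54 without alignment and 0.47 without regression. In immature monocyte-like cells it was -1.07 without cell filters, -0.067 with each cell weighted the same, -0.072 at resolution 0.5, -0.72 at resolution 1.5, -1.06 without alignment, -0.29 without regression and -0.84 with cell cycle genes kept. In mature PMN-like cells it was 0.36 without doublet removal, 0.30 with each cell weighted the same and -0.19 without alignment. In mature monocyte-like cells it was 0.71 at resolution 1.5 and 0.73 without alignment, and its whole range was 0.42 to 0.73. The causes were not tested.

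The share of cells over the limit of member UMIs was 40.4% in DMSO and 50.3% in DAB without thinning (log2 ratio of shares 0.32), 16.3% and 18.5% when thinned to 3000 UMIs, 38.9% and 42.9% at 1 UMI, and 3.19% and 3.48% at 5 UMIs. In cells with mitosis UMIs the median was 0.22 without thinning, 0.22 when thinned to 3000 UMIs and -0.098 at 5 mitosis UMIs. The DMSO median of S-like over mitosis-like cells was 0.59 without thinning. In S-like cells, whose alternatives were all chosen after seeing the data, the median and the count called higher were 0.33 and 8 at 3 S phase UMIs, 0.44 and 13 with each cell weighted the same, and -0.20 and 2 without thinning, where the direction reversed. The share of all genes called was not computed for these alternatives, so their counts cannot be set against a background.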

Other observations

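Among clusters that no marker list named, the summed level of the 33 replication genes differed in both directions. In a cluster led by stefin genes such as Stfa1 and Stfa2 (184 DMSO cells and 1041 DAB cells) it was 1117 CPM in DMSO and 914 CPM in DAB. In a cluster led by Il2ra, Cpa3 and Cd200r3 (233 and 881 cells) it was 1066 and 967 CPM. In a cluster led by Mt2, Mt1 and Itga2b (135 and 36 cells) it was 867 and 412 CPM. It was higher in DAB in a cluster led by Retnlg and Ly6g (122 and 430 cells), with 182 and 362 CPM, and in a cluster led by Chil3 and Trf (585 and 177 cells), with 508 and 822 CPM. These clusters were picked after their values were seen, and none of these differences was tested.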
